A study of Mus musculus with 12 samples.

Results

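The 8 genes described here encode enzymes of heme synthesis: Alas1, Alas2, Alad, Uros, Urod, Cpox, Ppox and Fech. They were chosen by name, as the rows of the deposited count table whose Ensembl identifier belongs to these symbols in the GENCODE mouse annotation. All 8 were found among the 55414 genes of the table, and all 8 were among the 13857 genes that passed the filter on low counts and were tested. The step of the pathway between Alad and Uros was not analysed here.

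RNA was sequenced from whole livers of female wild-type C57Bl/6J mice aged 8 to 12 weeks, in 4 groups of 3 mice. Each mouse received 0.9% NaCl or 300 mg/kg FeSO4 by i.p. injection, and 6 h later PBS or 10 mg/kg dexamethasone (DEX), a synthetic glucocorticoid. The liver was taken 2 h after the second injection, 8 h after the first. The groups are named NaCl/PBS, NaCl/DEX, FeSO4/PBS and FeSO4/DEX. They allow the response to an acute iron load, the response to DEX, and the DEX response after an iron load to be read for each enzyme, at a single time point.

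Heme is built from glycine and succinyl-CoA in a chain of reactions that begins in mitochondria, passes through the cytosol and ends in mitochondria with the insertion of iron. Hepatocytes make heme mostly for cytochromes P450 and other heme enzymes, and their supply is set mainly at the step catalysed by ALAS1, whose gene is repressed by heme. Red cell precursors use a separate enzyme, ALAS2, whose mRNA carries an iron-responsive element, a hairpin bound by iron regulatory proteins when iron is scarce.

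Library totals ran from 16335651 to 23827340 counts. Normalized counts below are reads scaled by TMM to the mean effective library size, and LFC is the log2 fold change of the edgeR model. Genes were called at an FDR of 0.05 or less, adjusted over all genes tested. The livers carried all 8 hepatocyte markers at high levels, and their summed normalized count was 2396954 to 2739261 in NaCl/PBS livers and 3030899 to 3469068 in FeSO4/PBS livers. After FeSO4 4 of the 8 were higher and 0 lower, against 27.2% and 27.3% of all genes. Those higher were Fgb (LFC 0.95), Fga (0.85), Ttr (0.57) and Apoa1 (0.41). When libraries were scaled by library size alone, the calls of Ttr and Apoa1 were lost (edgeR FDR 0.075 and 0.65). Markers of other cells moved with FeSO4 as well. All 5 neutrophil markers tested, of 8 listed, were higher, against 27.2% of all genes. The neutrophil sum was 52.5 to 179.5 in NaCl/PBS and 675 to 846 in FeSO4/PBS. Of 8 Kupffer cell markers 7 were lower (against 27.3%), with a sum of 8347 to 9441 against 4937 to 5752. Cholangiocyte markers had a sum of 533 to 683 against 1068 to 1376, with 2 of 5 higher. Of 6 endothelial markers 1 was higher and 3 lower, of 5 stellate cell markers 2 and 1, and of 4 lymphocyte markers tested 0 and 1. The part of these cells in the results on the enzymes was not tested, and fewer cells of a type cannot be told apart from less RNA per cell. FeSO4/PBS mouse 1 differed more from the other FeSO4/PBS mice than they did from each other (chi-square per gene 90.1 and 71.7 against 24.1), so the members' LFCs that rest on that group are also given without it, as are those of other named genes whose call it ended or whose LFC it moved by over 1.5 times.

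Sequence elements known from this pathway were looked up first, because the ALAS isoforms differ in them. RefSeq promoter windows of 250 bases before to 50 bases after a start (assembly GRCm38.p6) were at hand for 7 of the 8 genes, in 10 windows. All 10 were placed on GRCm39 by an exact match. Both Alas1 windows held the palindromic element of NRF1, a regulator of mitochondrial genes, spelled GCGCA followed by its reverse complement, which 0.971% of 32851 windows held on either strand. It lay at positions -195 to -186 from the RefSeq start of one window and at 30 to 39 after that of the other. The 30-base stretch shown around it is chr9:106125105-106125134 on the minus strand, inside an Alas1 exon outside the coding sequence in GENCODE. Part of this stretch also lies in an exon of 4930500F10Rik, a gene of the opposite strand. The Alas2 window held AGATAA, the element of GATA factors, on the reverse strand, at positions -86 to -81 from its start. The stretch shown is chrX:149330315-149330344 on the plus strand, upstream of every annotated Alas2 exon. It lies inside Apex2, a gene of the opposite strand, but in none of its annotated exons. AGATAA occurred in 11.2% of windows, and in one other enzyme window, that of Cpox. Both stretches are shown because they differ between the general and the erythroid gene, with the element in capitals.
Alas1 promoter stretch: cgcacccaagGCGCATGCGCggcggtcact
Alas2 promoter stretch: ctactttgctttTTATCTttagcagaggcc

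The Alas2 transcript also held a hairpin of the iron-responsive type in its 5′ UTR. It was searched as C, 5 bases, the loop CAGTG followed by A, C or T, and 5 bases pairing with the earlier 5. Such a hairpin was found in 17 of 12558 canonical 5′ UTRs of tested genes (0.135%), and among the 8 enzymes in Alas2 alone. It spans 17 bases at chrX:149330460-149330476 on the plus strand of GRCm39, bases 90 to 106 of a 5′ UTR of 126 bases, and the capitals mark the loop. These bases also lie inside Apex2, in none of its annotated exons.
Alas2 hairpin: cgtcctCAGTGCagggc

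Other elements were searched in the same windows. The full glucocorticoid response element, AGAACA, a gap of NNN and TGTTCT, stood in 0 of the 10 member windows and in 3 of all 32851 (0.00913%). Its half-site TGTTCT occurred in windows of Alad, Alas2 and Uros, and in 19.0% of all windows. The E-box CACGTG occurred in 4 of the 10 member windows, those of 3 genes (Alad, Urod and Uros), and in 7.15% of all windows. Windows of one gene can overlap, and these shares were not tested. The antioxidant response element core TGACNNNGC was in no member window and in 12.4% of all. These are matches of letters on both strands in a short window and say nothing of binding.

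Alas1 was the enzyme gene that responded to both agents. ALAS1 joins glycine to succinyl-CoA and limits the rate of the whole pathway in liver. Alas1 (ENSMUSG00000032786, chr9:106110642-106135734 on the minus strand, GRCm39) had normalized counts of 8144, 9852 and 6950 in NaCl/PBS livers. The NaCl/DEX livers had 36632, 28307 and 32891. The FeSO4/PBS livers had 18802, 13409 and 14627, and the FeSO4/DEX livers 15111, 15619 and 15012. NaCl/PBS was the lowest and NaCl/DEX the highest group, without overlap with any other, and between them lay the FeSO4 groups, which overlapped each other.

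DEX in NaCl mice raised Alas1 by an LFC of 1.97 (SE 0.16, edgeR FDR 3.4e-06), a 3.92-fold increase. FeSO4 alone raised it by an LFC of 0.91 (SE 0.16, edgeR FDR 0.00026), a 1.88-fold increase, and by 0.76 without FeSO4/PBS mouse 1. DEX given after FeSO4 left an LFC of -0.03 (95% interval -0.37 to 0.30, edgeR FDR 0.98). The interval excludes the rise seen in NaCl mice, and the difference between the DEX responses, tested as an interaction, was -2.01 (SE 0.22, edgeR FDR 0.00016). Among DEX mice, those given FeSO4 had lower Alas1 than those given NaCl, with an LFC of -1.10 (SE 0.16, edgeR FDR 8.4e-05). The plot of the 8 genes by group shows this pattern in the Alas1 panel alone.

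**Figure D1:**
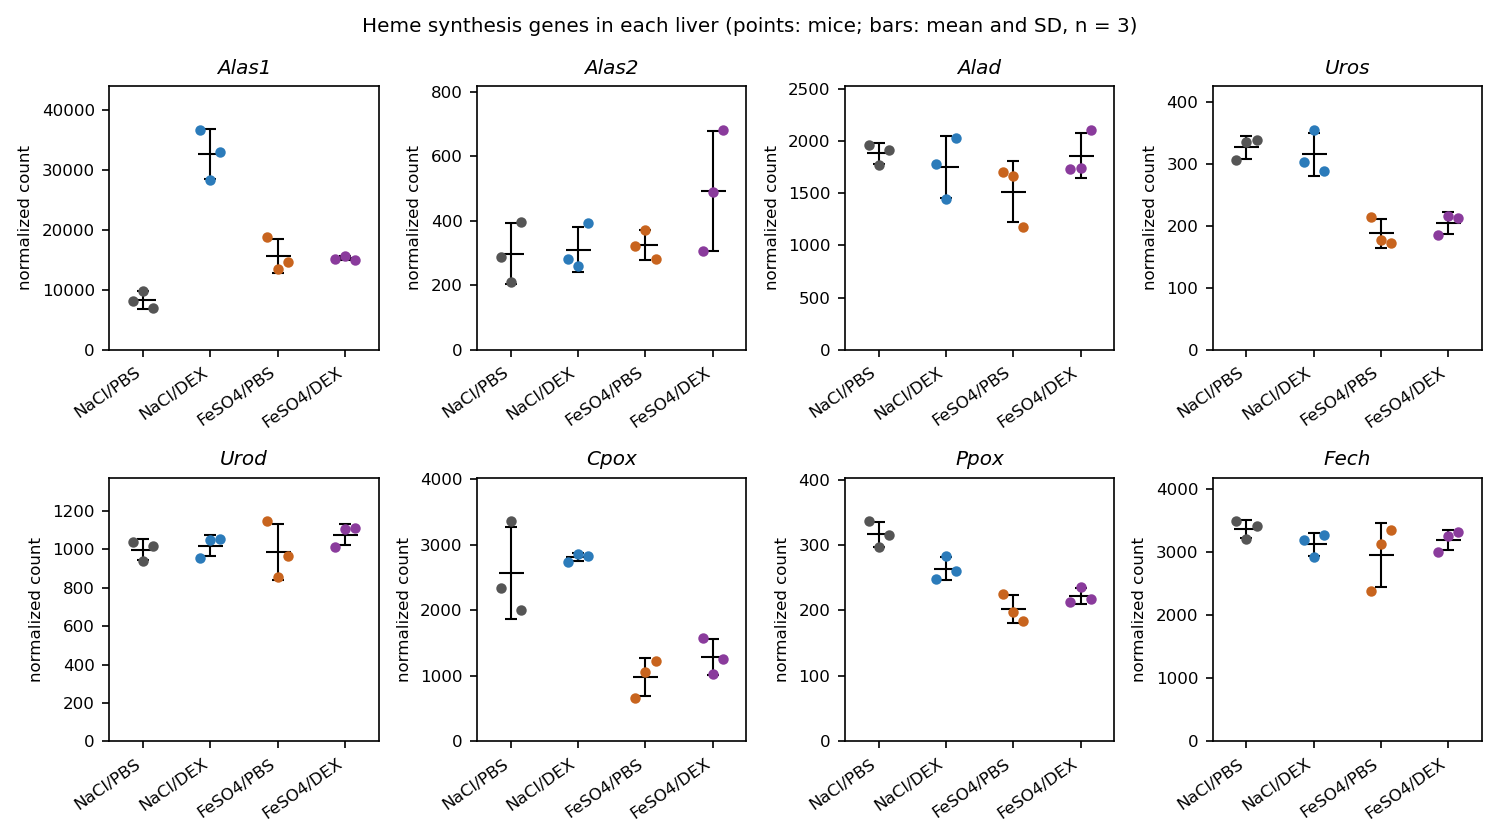
Normalized counts (vertical axes from 0) of the 8 enzyme genes in each liver, by group (horizontal axes); points are mice, bars the mean and SD of 3 mice. Alas1 is lowest in NaCl/PBS and highest in NaCl/DEX (28307 to 36632), while Uros and Cpox are lower in both FeSO4 groups than in both NaCl groups.

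Alas2 stayed far below Alas1 in all groups. ALAS2 catalyses the same reaction as ALAS1 in red cell precursors. Alas2 (ENSMUSG00000025270, chrX:149330371-149353634, plus strand) had normalized counts of 288, 210 and 396 in NaCl/PBS, 282, 259 and 392 with NaCl/DEX, 322, 372 and 282 with FeSO4/PBS, and 307, 489 and 681 with FeSO4/DEX. All 4 groups overlapped, and the highest values were those of FeSO4/DEX mice 2 and 3. Its reads were 0.771% to 5.70% of the Alas1 reads of the same liver, a share not corrected for gene length. Per kilobase of annotated exons its mean in NaCl/PBS was 111 against 843 for Alas1, and above Uros (44.3) and Ppox (39.3). In FeSO4/DEX it was 183, against 1545 for Alas1 and 181 for Urod. None of its edgeR tests passed: the LFC was 0.13 for FeSO4 (FDR 0.72), 0.06 for DEX (FDR 0.92), 0.59 for DEX after FeSO4 (unadjusted p = 0.047, FDR 0.76) and 0.66 for FeSO4/DEX against NaCl/DEX (FDR 0.064). This last comparison turned on single livers, with an LFC of 0.91 (edgeR FDR 0.011) without FeSO4/DEX mouse 1 and of 0.32 (edgeR FDR 0.38) without FeSO4/DEX mouse 3.

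Erythroid markers varied beside Alas2. Of 16 erythroid genes listed, 15 were in the table and 6 passed the filter, while 9 had at most 13 reads in any liver. Gata1, Rhag, Rhd and Kel, which are expressed in red cell precursors, were each at 0 in 11 of 12 livers. Klf1, an erythroid transcription factor, had 26 to 153 reads and Sptb, for a spectrin of the red cell membrane, 22 to 64, so neither was at 0 in any liver. The summed normalized count of the erythroid markers was 1437, 1936 and 3483 in NaCl/PBS, 2633, 3233 and 3371 with NaCl/DEX, 4359, 5296 and 2682 with FeSO4/PBS, and 3752, 8007 and 8328 with FeSO4/DEX. FeSO4/DEX mice 2 and 3 were thus highest for both measures, and globin mRNAs made up most of the sum. After FeSO4 alone 3 of the 6 tested markers were higher, among them Hbb-bs with an LFC of 0.84 and Hba-a1 with 1.12. Between the DEX groups 4 of 6 were. The shares of all genes called higher were 27.2% and 22.4% in these comparisons. All the markers called higher were globin genes. The non-globin markers had LFCs below 0 after FeSO4, -0.67 for Klf1 (edgeR FDR 0.14) and -0.37 for Sptb (edgeR FDR 0.27), and Klf1 passed as lower without FeSO4/PBS mouse 1 (-1.43, edgeR FDR 0.00076). The count of 3 was 0 when FeSO4/PBS mouse 2, NaCl/PBS mouse 1 or NaCl/PBS mouse 2 was left out, and leaving out FeSO4/PBS mouse 1 gave 1. The globin genes have near-identical copies, so their single values are uncertain. The part of red cell RNA in the Alas2 counts was not tested.

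**Figure D2:**
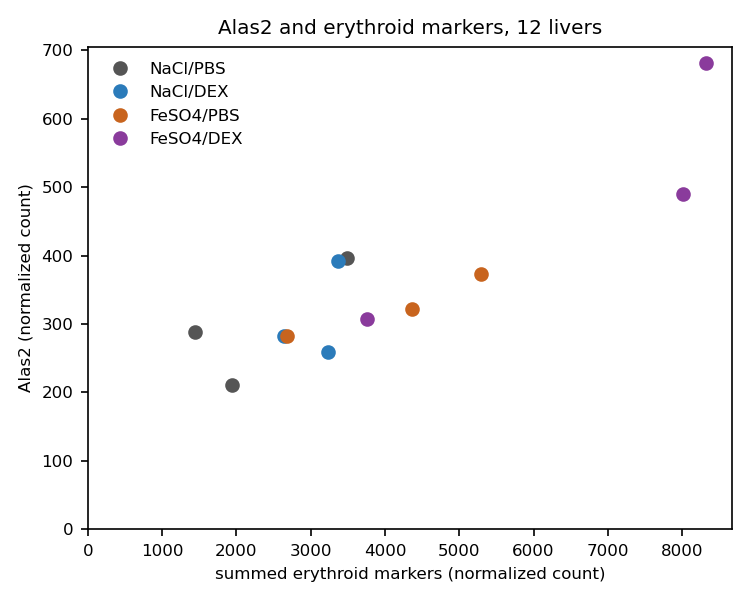
Alas2 normalized count (vertical axis) against the summed normalized count of the erythroid markers (horizontal axis) in the 12 livers, coloured by group. The livers highest for both are FeSO4/DEX mice 2 and 3, with Alas2 at 489 and 681.

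Alad and Urod, which act in the cytosol, showed no call. ALAD joins pairs of aminolevulinate molecules into porphobilinogen. Alad (ENSMUSG00000028393, chr4:62423283-62438587, minus strand) had normalized counts of 1960.0, 1766 and 1914 in NaCl/PBS, 1780, 1443 and 2031 with NaCl/DEX, 1701, 1663 and 1176 with FeSO4/PBS, and 1725, 1737 and 2103 with FeSO4/DEX. Every FeSO4/PBS liver was below every NaCl/PBS and every FeSO4/DEX liver. The difference from NaCl/PBS missed the threshold, at an LFC of -0.31 (SE 0.16, edgeR FDR 0.10) and at -0.40 (edgeR FDR 0.053) without FeSO4/PBS mouse 1, as did that for DEX after FeSO4, at 0.29 (edgeR FDR 0.77). The DEX comparison in NaCl mice gave -0.10 and that between the DEX groups 0.08, both with overlapping groups.

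Urod, for uroporphyrinogen decarboxylase, varied least among the 8. Urod (ENSMUSG00000028684, chr4:116844840-116851610, minus strand) had normalized counts of 1039, 937 and 1017 in NaCl/PBS, 956, 1050.2 and 1053 with NaCl/DEX, 1145, 855 and 963 with FeSO4/PBS, and 1014, 1107 and 1111 with FeSO4/DEX. The groups overlapped in each of the 4 comparisons. Its LFC was -0.02 for FeSO4 (95% interval -0.26 to 0.23, and -0.13 without FeSO4/PBS mouse 1), 0.03 for DEX (-0.21 to 0.27), 0.12 for DEX after FeSO4 (-0.12 to 0.37) and 0.08 between the DEX groups (-0.17 to 0.32).

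Uros and Cpox fell with FeSO4 whether or not DEX followed. UROS closes the linear tetrapyrrole into the uroporphyrinogen III ring. Uros (ENSMUSG00000030979, chr7:133285987-133311801, minus strand) had normalized counts of 306, 336 and 339 in NaCl/PBS, 303, 354 and 289 with NaCl/DEX, 214, 177 and 172 with FeSO4/PBS, and 185, 216 and 213 with FeSO4/DEX. Both FeSO4 groups lay below both NaCl groups without overlap. Its LFC for FeSO4 was -0.80 (SE 0.13, edgeR FDR 0.00022) in PBS mice and -0.63 (SE 0.14, edgeR FDR 0.0019) in DEX mice. Without FeSO4/PBS mouse 1 the first was -0.90. DEX gave -0.05 in NaCl mice (edgeR FDR 0.86) and 0.12 in FeSO4 mice (edgeR FDR 0.90).

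CPOX oxidises coproporphyrinogen in the space between the mitochondrial membranes. Cpox (ENSMUSG00000022742, chr16:58490414-58537999, plus strand) had normalized counts of 2340, 3357 and 2009 in NaCl/PBS, 2742, 2862 and 2831 with NaCl/DEX, 655, 1063 and 1231 with FeSO4/PBS, and 1572, 1033 and 1264 with FeSO4/DEX. Both FeSO4 groups again lay below both NaCl groups, and FeSO4/PBS mouse 1, the lowest in Cpox, was the FeSO4 liver highest in Alas1. The fall of Cpox was the largest among the members, with an LFC of -1.39 (SE 0.23, edgeR FDR 0.00017), to 0.382 of the NaCl/PBS level. It was -1.16 without FeSO4/PBS mouse 1. Between the DEX groups the LFC was -1.12 (SE 0.23, edgeR FDR 0.0012). DEX after FeSO4 gave 0.39 (95% interval -0.09 to 0.88, edgeR FDR 0.79), and 0.15 (edgeR FDR 0.92) without FeSO4/PBS mouse 1. The response in NaCl mice was 0.13 (edgeR FDR 0.76).

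Ppox fell with FeSO4 in PBS mice. PPOX makes protoporphyrin at the inner mitochondrial membrane. Ppox (ENSMUSG00000062729, chr1:171100969-171109385, minus strand) had normalized counts of 336, 297 and 315 in NaCl/PBS, 248, 283 and 260 with NaCl/DEX, 226, 198 and 184 with FeSO4/PBS, and 213, 237 and 218 with FeSO4/DEX. NaCl/PBS was above all other groups and NaCl/DEX above both FeSO4 groups, without overlap. The LFC for FeSO4 was -0.64 (SE 0.12, edgeR FDR 0.00062), and -0.72 without FeSO4/PBS mouse 1. That for DEX in NaCl mice was -0.26 (unadjusted p = 0.0497, edgeR FDR 0.19) and that between the DEX groups -0.25 (edgeR FDR 0.12), so neither passed. DEX after FeSO4 gave 0.13 (edgeR FDR 0.87) with overlapping groups.

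Fech, for the enzyme that inserts iron into protoporphyrin, passed no test. Fech (ENSMUSG00000024588, chromosome 18) had normalized counts of 3491, 3219 and 3413 in NaCl/PBS, 3191, 2929 and 3277 with NaCl/DEX, 2381, 3135 and 3349 with FeSO4/PBS, and 3013, 3260 and 3321 with FeSO4/DEX. The groups overlapped in each of the 4 comparisons, and FeSO4/PBS mouse 1 was the lowest liver. Its LFC for FeSO4 was -0.19 (95% interval -0.45 to 0.07, edgeR FDR 0.20), and -0.05 without that mouse. The other comparisons gave -0.11, 0.11 and 0.03.

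Counted together, FeSO4 in PBS mice raised 1 of the 8 enzymes and lowered 3, against 27.2% of all genes tested called higher and 27.3% called lower. The members' median LFC was -0.25 and that of all genes -0.02. Groups did not overlap for 1 member that was higher and 4 that were lower, against 29% and 31% of all genes. DEX in NaCl mice raised 1 and lowered 0 by edgeR and by DESeq2, against 6.5% and 7.15% of all genes, with 2 members at an unadjusted p under 0.05 and medians of -0.01 for the members and -0.02 for all genes. One member was higher and 1 lower without overlap, against 17.6% and 20.3%. Alas1 is the member behind the higher count in both comparisons, which share the NaCl/PBS livers.

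DEX after FeSO4 raised 0 and lowered 0 members, against 0% and 0% of all genes, by edgeR. At an unadjusted p under 0.05 the counts were 1 of 8 members, Alas2, and 6.49% of all genes. Without FeSO4/PBS mouse 1 no member was called (edgeR FDR 0.80 or more) and the LFCs were 0.10 for Alas1, 0.56 for Alas2, 0.36 for Alad, 0.20 for Uros, 0.22 for Urod, 0.19 for Ppox and -0.04 for Fech, with Alad and Urod at an unadjusted p under 0.05. DESeq2 called no member and, of all genes, 5 higher and 4 lower. Alad alone did not overlap, on the higher side, against 4.45% of all genes higher and 4.85% lower. Between the DEX groups 0 members were higher and 3 lower, against 22.4% and 20.9%, and 0 were higher and 4 lower without overlap, against 28.8% and 27.1%. For the difference between the DEX responses Alas1 was the 1 member called, on the lower side (-1.89 without FeSO4/PBS mouse 1), against 3.2% of all genes lower and 2.99% higher. Ppox followed with 0.39 (unadjusted p = 0.043, edgeR FDR 0.23) and the other 6 had intervals that include 0.

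**Figure D3:**
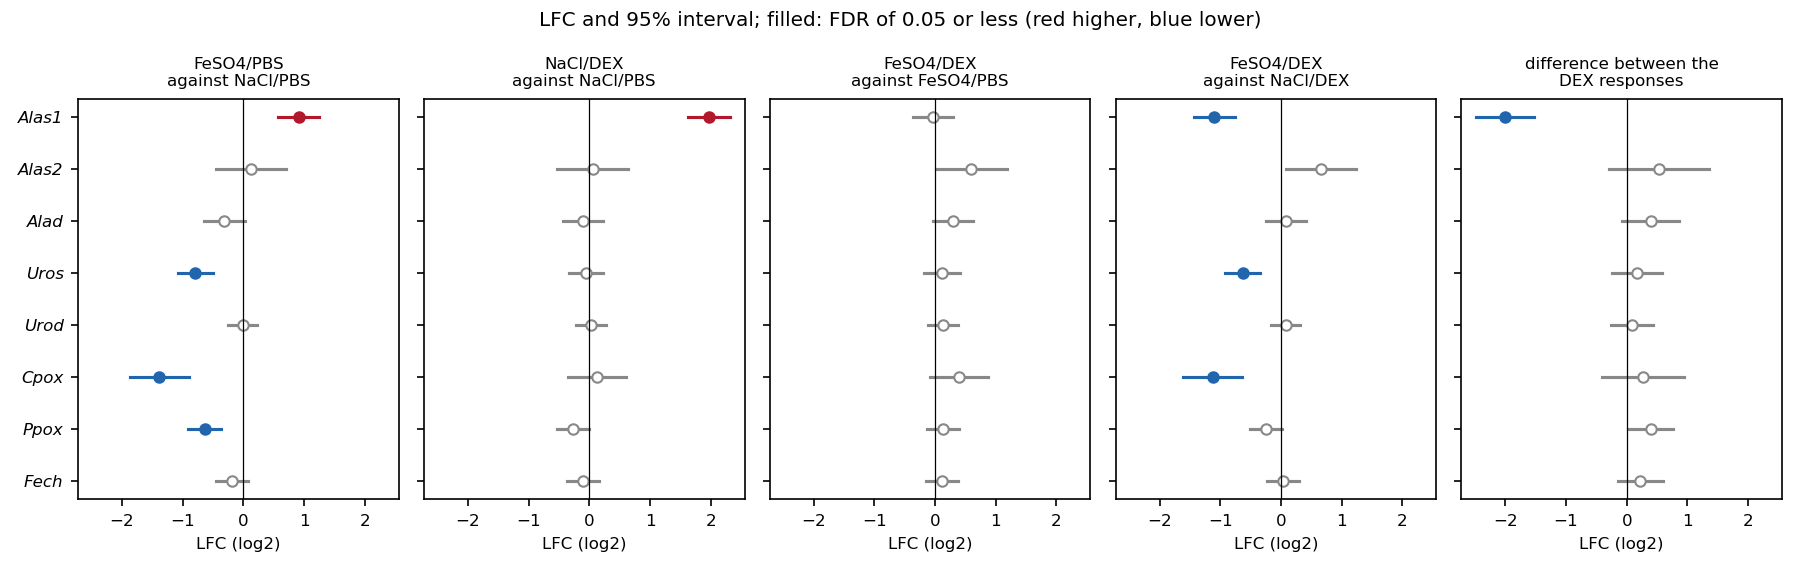
LFC (log2, horizontal axes) of the 8 enzyme genes (rows) in the 4 comparisons and for the difference between the DEX responses; points are estimates, lines 95% intervals, and filled points have an edgeR FDR of 0.05 or less. Alas1 is filled in every panel except DEX after FeSO4, where its LFC is -0.03.

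Because the enzymes moved in opposite directions, the balance within a liver shifted. A ratio of reads in a single library does not depend on scaling between libraries, although it compares genes of unlike length and so is read only across groups. Alas1 had 3.48, 2.93 and 3.46 reads per Cpox read in NaCl/PBS livers. The values were 13.4, 9.89 and 11.6 with NaCl/DEX, 28.7, 12.6 and 11.9 with FeSO4/PBS, and 9.61, 15.1 and 11.9 with FeSO4/DEX. NaCl/PBS was below all other livers, and the other 3 groups overlapped each other. Of the pair only Alas1 passed the test for DEX in NaCl mice, whereas both passed it for FeSO4, in opposite directions. The overlap depended on the gene Alas1 was set against. Per Fech read Alas1 had 2.04 to 3.06 in NaCl/PBS, 9.67 to 11.5 with NaCl/DEX, 4.28 to 7.90 with FeSO4/PBS and 4.52 to 5.02 with FeSO4/DEX. There NaCl/DEX lay above both FeSO4 groups. Per Uros read the groups overlapped as they did per Cpox read.

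Per kilobase of annotated exons, Alas1 led in every group, whereas the order of the others depended on the length used. This scale divides the normalized count by the length of the union of a gene's exons and permits levels to be compared between genes. In NaCl/PBS livers the mean level per kilobase was 843 for Alas1, 372 for Cpox, 280 for Alad, 237 for Fech, 168 for Urod, 111 for Alas2, 44.3 for Uros and 39.3 for Ppox. Cpox and Alad overlapped, as did Uros and Ppox, and the other neighbours did not. In FeSO4/PBS livers Cpox had 142 and stood below Alad (225), Fech (208) and Urod (166), with overlap between all of these neighbours. Alas1 made up 40.0% ± 3.47 (SD, n = 3) of the summed level of the 8 in NaCl/PBS, 72.4% ± 2.45 with NaCl/DEX, 63.1% ± 4.82 with FeSO4/PBS and 58.3% ± 2.53 with FeSO4/DEX. With canonical transcript lengths, a choice added after the data were seen, the shares were 50.9%, 80.3%, 73.3% and 69.5%. Alas1 led and Cpox came next in NaCl/PBS by canonical and by longest transcript lengths too, but the order below them turned. By both, Fech was above Alad in every NaCl/PBS liver, and in FeSO4/PBS livers the mean of Cpox stood above that of Urod. By canonical lengths Ppox was above Uros in every NaCl/PBS liver.

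**Figure D4:**
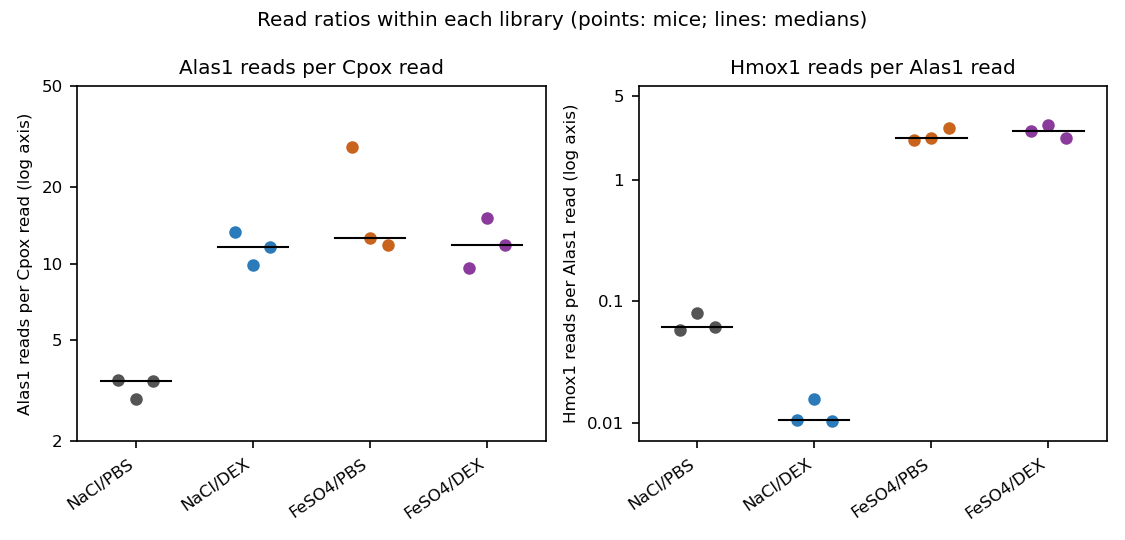
Alas1 reads per Cpox read (left) and Hmox1 reads per Alas1 read (right) in each liver, on log axes, by group; points are mice and lines medians. The left ratio is below 3.5 in NaCl/PBS and above 9.6 in the other 3 groups, and the right ratio is above 2.1 in both FeSO4 groups and below 0.081 in both NaCl groups.

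One gene of heme degradation, Hmox1, moved far more than any synthesis enzyme after FeSO4. Hmox1, for the inducible heme oxygenase that opens the heme ring and frees its iron, had 0.0579, 0.0803 and 0.0615 reads per Alas1 read in NaCl/PBS livers and 0.0106, 0.0155 and 0.0103 in NaCl/DEX. It had 2.14, 2.21 and 2.71 in FeSO4/PBS and 2.53, 2.83 and 2.24 in FeSO4/DEX. Every FeSO4 liver thus had more Hmox1 than Alas1 reads and every NaCl liver fewer. Of the 4 degradation genes 3 were higher after FeSO4 (75%, against 27.2% of all genes): Hmox1 with an LFC of 6.02, Hmox2 with 0.64 and Blvrb with 0.42. The LFCs of Hmox2 and Blvrb were smaller than that of Alas1, and Blvra had -0.14 (edgeR FDR 0.54). The call of Blvrb was lost without single livers (LFC 0.27, highest edgeR FDR 0.19, without FeSO4/PBS mouse 1). It was also lost with the replicate block (edgeR FDR 0.052), where 2 of the 4 were higher. DEX in NaCl mice changed none of the 4 in the main edgeR fit, where Hmox1 had an LFC of -0.53 (FDR 0.12). In alternatives 1 of the 4 was called higher by DESeq2 and by edgeR on the compared groups alone. With library size alone and with no filter on low counts, edgeR called 1 lower.

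The surrounding genes were read from lists of the supply of substrates, the carriers of porphyrins, heme and mitochondrial iron, the known regulators, and the heme enzymes of the liver. The calls over all genes, 27.2% higher and 27.3% lower after FeSO4 and 6.5% and 7.15% after DEX, are the background of each count. Of 9 substrate genes 1 was higher after FeSO4, Dlst of the oxoglutarate dehydrogenase complex that yields succinyl-CoA (LFC 1.00), and 2 were lower, Shmt1, a serine hydroxymethyltransferase that yields glycine (-0.91), and Slc25a38, the mitochondrial glycine carrier (-0.53). These are shares of 11.1% and 22.2%, both under the background. DEX in NaCl mice changed 0 of the 9 in the main edgeR fit.

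Of 15 carrier and iron delivery genes 6 were higher (40%) and 2 lower (13.3%) after FeSO4. Slc25a28, a mitochondrial iron importer, had an LFC of 1.79, and its paralog Slc25a37, the main importer of red cell precursors, had -0.62. Flvcr1, a heme exporter, had 1.40 and Slc48a1, which moves heme out of lysosomes, 0.74. Without FeSO4/PBS mouse 1 Slc48a1 had 0.43 (edgeR FDR 0.018). Abcb10, a transporter of the inner mitochondrial membrane that stabilises the Slc25a37 product, fell by 1.47. DEX in NaCl mice raised 1 of the 15 (6.67%, near the background), Flvcr2 (LFC 2.27), which is named because it was the only one called, after its value was seen. For the difference between the DEX responses 0 of the 15 were higher and 1 lower, against 2.99% and 3.2% of all genes. That 1 was Flvcr2 again (-1.60, edgeR FDR 0.022), with an FDR of up to 0.057 when single livers were left out.

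Of 18 regulators 10 were higher (55.6%, against 27.2% of all genes) and 4 lower (22.2%, against 27.3%) after FeSO4. After DEX in NaCl mice 3 were higher (16.7%, against 6.5%) and 4 lower (22.2%, against 7.15%). Among these, the calls of Hnf4a (0.37) and Egr1 (-1.52) were lost without single livers, at an edgeR FDR of up to 0.15 and 0.12. The call of Hnf4a was also lost with library size alone (edgeR FDR 0.21) and with the replicate block (edgeR FDR 0.065). The 3 largest rises after FeSO4 were those of Npas2, Clpx (LFC 2.04) and Foxo1 (1.83). Npas2 is a clock transcription factor, Clpx encodes the unfoldase that acts on ALAS protein, and Foxo1 an activator of Alas1 in fasting. Npas2 had 3, 2 and 1 reads in NaCl/PBS livers and 27, 63 and 65 in FeSO4/PBS, so its fitted LFC of 5.03 rests on few reads. The 3 largest falls were those of Nr1i3, the drug-sensing receptor CAR that induces Alas1 (-2.28), Esrra (-0.79) and Nr1h4, the bile acid receptor FXR (-0.58). Ppargc1a, the coactivator through which fasting raises Alas1, had an LFC of 0.63 (edgeR FDR 0.26) with normalized counts of 99.8, 704 and 420 in FeSO4/PBS livers against 220 to 308 in NaCl/PBS. Ppargc1a passed without FeSO4/PBS mouse 1, the lowest of these (LFC 1.10, edgeR FDR 0.0025), and had -0.041 without FeSO4/PBS mouse 2, the highest. Nr1d1, the heme-binding clock repressor REV-ERB alpha, had 0.33 after FeSO4 (edgeR FDR 0.41) and -2.53 after DEX (edgeR FDR 0.00026), and its relative Nr1d2 had -0.42 after FeSO4 (edgeR FDR 0.044). The call of Nr1d2 was lost in 8 of the 12 fits that left out a liver, with an LFC of -0.26 without FeSO4/PBS mouse 1 and an FDR of up to 0.17. DEX in NaCl mice gave an LFC of 1.21 for Foxo1 (edgeR FDR 4.2e-05) and -0.96 for Nr1i3 (edgeR FDR 0.0043). For the difference between the DEX responses 2 of the 18 were higher and 1 lower, against 2.99% and 3.2% of all genes. Nr1d1 had 2.49 there (edgeR FDR 0.0068) and Foxo1 -1.02 (edgeR FDR 0.0052).

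Of 18 heme enzymes of the liver 4 were higher and 3 lower after FeSO4, shares of 22.2% and 16.7% that lie under the 27.2% and 27.3% of all genes. Tdo2, tryptophan dioxygenase, had an LFC of 0.59, Cyp27a1, of bile acid synthesis, 0.56 and Cyp2d10 0.44. Cyp7a1, the rate-limiting enzyme of bile acid synthesis, fell by 6.01, Cyp51, of sterol synthesis, by 0.83 and Cyp3a13 by 0.58. The call of Cyp51 was lost without FeSO4/PBS mouse 1 (edgeR FDR 0.056) or mouse 3 (edgeR FDR 0.067). DEX in NaCl mice raised 3 of the 18 (16.7%, against 6.5%) and lowered 0 in the main edgeR fit. Among the 3 were Tdo2 (LFC 1.24) and Cyp27a1 (0.77). For the difference between the DEX responses 0 of the 18 were higher and 3 lower, against 2.99% and 3.2% of all genes. Tdo2 had -1.35 there (edgeR FDR 0.0068) and Cyp27a1 -0.79 (edgeR FDR 0.0082). The plot of the surrounding genes shows both comparisons for each gene.

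**Figure D5:**
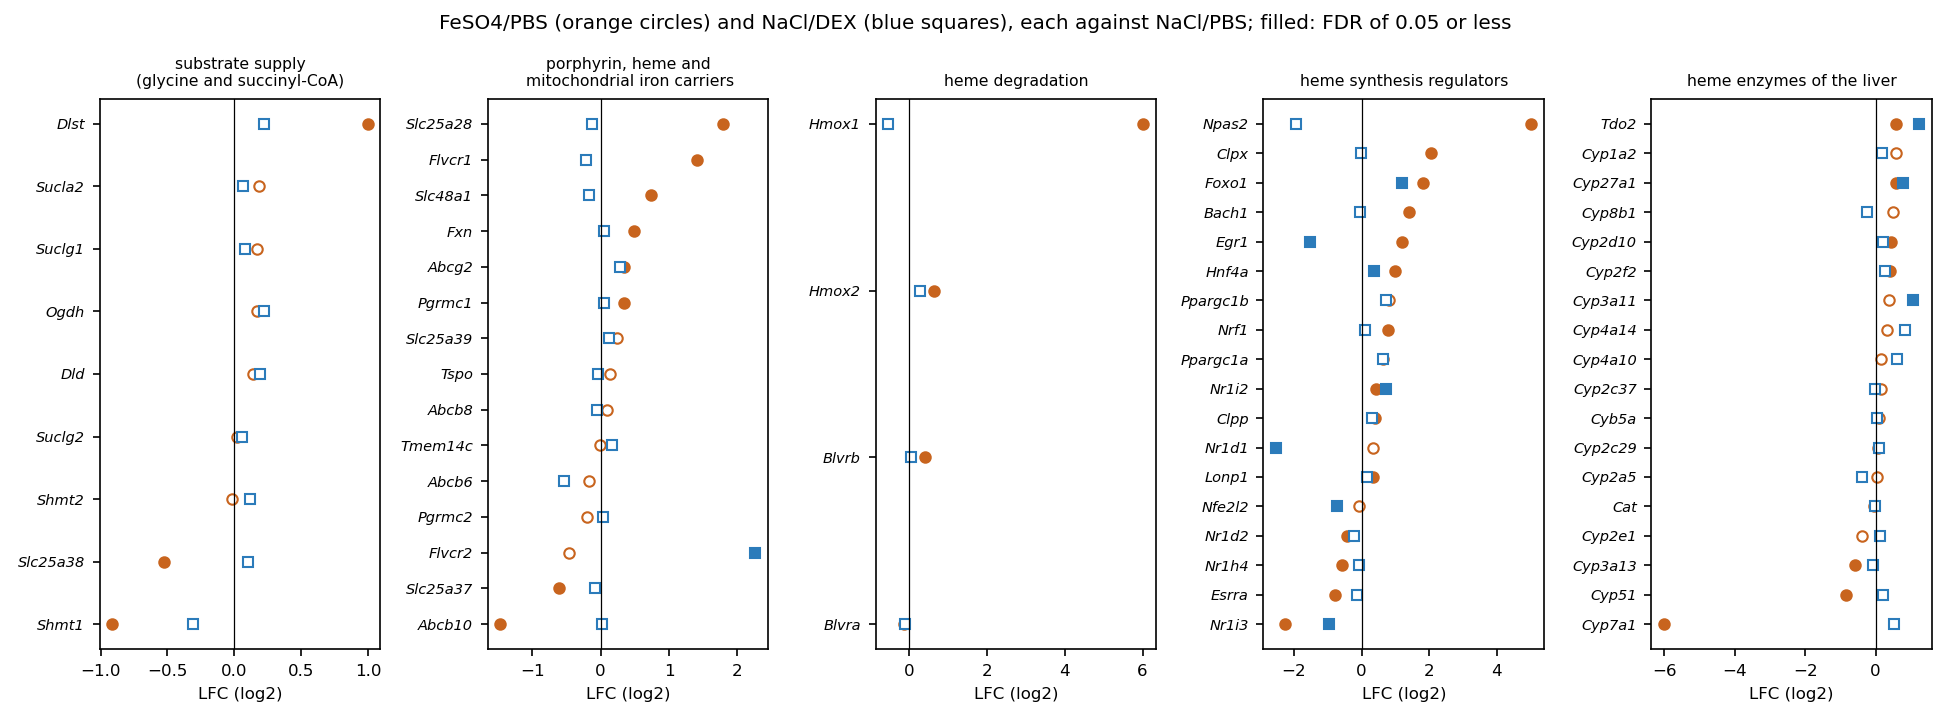
LFC (log2, horizontal axes, scaled for each panel) of the genes around heme synthesis in FeSO4/PBS (circles) and NaCl/DEX (squares), each against NaCl/PBS; filled symbols have an edgeR FDR of 0.05 or less. Hmox1 (6.02) and Cyp7a1 (-6.01) lie farthest from 0 after FeSO4, and Flvcr2 is the one carrier filled for DEX.

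For each member the 3 genes whose log2 CPM correlated most with it over the 12 livers were listed among 8951 genes with a mean normalized count of at least 100. They are a description, since the livers share groups and treatments. For Alas1 these were Map2k4 (Pearson r = 0.98), Susd6 and Uap1, and for Cpox Map4k2 (r = 0.99), Rasal2 and P2ry1. For Uros they were Rtp3 (r = 0.97), P4ha1 and Rasgrp2, and for Ppox Snapc2 (r = 0.96), Ankrd16 and Brd3. For Fech Eef2k led (r = 0.93), followed by Nbeal1 and Car8. For Alas2 the leading genes were Pomt1 (r = 0.91), Lap3 and Il18, for Alad Spc24 (r = 0.91), Akr1c12 and Bphl, and for Urod Uqcc2 (r = 0.82), Bckdha and Ascc2. Once group means were removed, Lap3 for Alas2 was the only one of these 24 that stayed among the leading 3.

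Several members share exon positions with genes on the other strand. Urod shares 3440 bases with Zswim5, Ppox 3277 with B4galt3 and 1041 with Gm57119, Alad 556 with Gm69513, Alas1 2590 with 4930500F10Rik, Alas2 311 with Apex2, Cpox 204 with Gpr15 and Uros 4 with Bccip. The overlapping genes held 370 counts over the 12 livers for Zswim5, 1796 for B4galt3, 5 for 4930500F10Rik, 1360 for Apex2, 0 for Gpr15 and 13173 for Bccip. Gm57119 and Gm69513 were not analysed here. The library kit keeps strand, but the strand used in counting is not given in the sources used here, so the levels of these members carry that uncertainty.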

How the data were processed

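The authors prepared stranded mRNA libraries (TruSeq, single-end, 100 cycles), checked reads with FastQC, aligned them with STAR 2.7.10b to mm39 and deposited raw read counts per gene for the 12 livers, with no normalization. The authors' own test was DESeq2. Here edgeR 4.0.16 (R 4.3.3) was run on the deposited counts of all 4 groups: filterByExpr, TMM, and the quasi-likelihood test with Benjamini-Hochberg adjustment over 13857 genes. Symbols came from GENCODE vM39, with 665 of 55414 rows unmatched. DESeq2 1.42.0, other scalings, other filters, a replicate block, the compared groups alone and each library left out were alternatives. The edgeR step was run on simulated counts with few genes changed, in both directions and in NaCl/DEX alone. This run does not test the scaling between FeSO4 and NaCl livers. Replicates are separate mice per the study's description, while the sample titles give replicate numbers only. The members and lists were chosen with earlier results of these data known, and 1 gene of the carrier list is not reported here. Named genes were every member and, per list, up to 3 called genes with the largest rise and up to 3 with the largest fall after FeSO4, plus Hmox1, Ppargc1a, Nr1d1 and Nr1d2. Low counts limit Alas2, Uros and Ppox most.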

Additional observations from a re-analysis of the deposited data

Results flagged for a closer look

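The response of Alas1 to DEX differed between FeSO4 and NaCl mice. The difference, FeSO4 minus NaCl, was an LFC of -2.01 (SE 0.22, edgeR interaction test, FDR 0.00016), from a response of 1.97 after NaCl and -0.03 after FeSO4, with 3 mice a group. All 3 NaCl/DEX livers were above all 3 NaCl/PBS livers, whereas the FeSO4 groups overlapped. The level without DEX also differed, at 8315 ± 1458 (SD) in NaCl/PBS and 15613 ± 2829 in FeSO4/PBS. Over the alternatives the difference ran from -2.16 to -1.88.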

How the results depend on the processing

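The calls of Alas1, Uros, Cpox and Ppox after FeSO4, of Alas1 after DEX and in the interaction, and of Alas1, Uros and Cpox between the DEX groups held in every alternative fit run. Requiring an LFC beyond 1 left 0 higher and 1 lower member after FeSO4. With library size alone, which moved the median LFC of all genes after FeSO4 from -0.02 to -0.34, 6 members were lower after FeSO4, and 1 was lower after DEX in NaCl mice (Ppox, -0.41). Ppox was then also lower between the DEX groups (-0.45, edgeR FDR 0.0088). With library size alone the calls of Blvrb, Slc48a1, Tdo2, Cyp27a1, Cyp2d10 and the globins as higher after FeSO4 were lost. The higher and lower counts were 1 and 4 for the substrates, 2 and 5 for the carriers, 6 and 5 for the regulators and 0 and 5 for the heme enzymes. Alas2 was the 1 member higher with no filter on low counts, both for DEX after FeSO4 (FDR 0.047) and between the DEX groups (FDR 0.00058). Between the DEX groups the higher count was 0 to 1 when single livers were left out, with 1 (Alas2) without FeSO4/DEX mouse 1 or NaCl/DEX mouse 3, and Ppox passed as lower without FeSO4/PBS mouse 1 (-0.29, FDR 0.049). The replicate block also gave 1 higher member there (Alas2, 0.64, FDR 0.046) and changed no other member call. Over all pairs the correlation of deviations was -0.09 to 0.13 for same-numbered livers (18 pairs) and -0.15 to 0.11 for others (36 pairs). Same-numbered NaCl/DEX and NaCl/PBS livers had 0.13, 0.11 and 0.05, above the differently numbered pairs of these groups (-0.15 to 0.03). Same-numbered FeSO4/DEX and FeSO4/PBS livers had -0.07, -0.07 and -0.03. These values cannot tell whether the numbers pair mice.

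Uncalled LFCs changed sign in some settings. With library size alone Alas2 had -0.20 after FeSO4 and -0.10 after DEX, Urod -0.12 and Cpox -0.021 after DEX, and Alad -0.11, Urod -0.12 and Fech -0.17 between the DEX groups. Urod after FeSO4 had 0.0060 with DESeq2 size factors and 0.0061 with DESeq2 itself. Leaving out single livers gave, after FeSO4, -0.066 to 0.38 for Alas2, -0.13 to 0.082 for Urod and -0.041 to 1.10 for Ppargc1a. After DEX in NaCl mice it gave -0.14 to 0.32 for Alas2, -0.22 to 0.021 for Alad, -0.14 to 0.010 for Uros, -0.00079 to 0.078 for Urod and -0.011 to 0.38 for Cpox. For DEX after FeSO4 it gave -0.13 to 0.10 for Alas1 and -0.042 to 0.21 for Fech, between the DEX groups -0.046 to 0.20 for Alad and -0.029 to 0.069 for Fech, and for the interaction -0.0049 to 0.17 for Urod. The cause of these changes was not tested.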
